A study of Mus musculus with 6 samples.

Results

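The Wnt receptors and pathway genes are 37 genes chosen by name, from the Frizzled receptors at the cell surface to the TCF and LEF factors in the nucleus. They were examined among the 9000 genes tested on 6 bead arrays of sorted mouse bone marrow. Each gene was read by 1 probe, the brightest among its probes detected (p under 0.05 against the array's background) on 3 or more arrays. Probes carried the symbols of 36 members, 19 members had a probe that could be tested, and 18 did not.

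The groups were NHD13 transgenic mice and their wild type littermates, both 3 months old. NHD13 stands for NUP98-HOXD13, a fusion protein found in human leukaemia and myelodysplastic syndrome. The labels name neither the promoter of the transgene nor the strain or sex of the mice. All samples were lineage-negative, Kit-positive cells sorted by flow cytometry, a fraction that holds blood stem and progenitor cells, and each array carried RNA pooled from 3 mice, with 3 arrays per genotype.

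Wnt proteins are secreted signals that bind Frizzled receptors. Together with the co-receptors Lrp5 and Lrp6 they recruit Dishevelled and stop the destruction complex of Axin, Apc and the Gsk3 kinases from marking beta-catenin for degradation, so that beta-catenin can act with TCF and LEF factors on DNA. Other Wnt signals run without beta-catenin, through receptors such as Ryk and Ror, and in blood the pathway is known for dose-dependent effects on stem cell renewal and lymphocyte development.

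The arrays detected between 15983 and 16672 probes in NHD13 cells and between 16196 and 16836 in wild type cells, of 45281 in all, and the median probe was read by 42 or 43 beads. Correlations across tested probes ran from 0.94 to 0.98 for pairs of arrays sharing a genotype and from 0.92 to 0.98 for the other pairs. Kit, the receptor used for sorting, had a mean log2 intensity of 12.60 in NHD13 arrays and of 12.82 in wild type arrays (limma adjusted p = 0.78). Of 15 T and NK cell markers 12 were not tested, among them Cd3d, Cd3g and Lck. The 3 tested, Cd8b1, Cd3e and Thy1, summed in normalized linear intensity to between 3174 and 5928 in NHD13 cells and between 4958 and 5824 in wild type cells, with Cd8b1 averaging 11.94 in NHD13 and 12.38 in wild type arrays (log2). Of 9 mature B cell genes 4 were tested, among them Cd79b and H2-Ob, detected on all 6 arrays. The 4 summed to between 444 and 987 in NHD13 cells and between 527 and 1005 in wild type cells. Col1a1 and Cxcl12 of stroma were not tested.

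Of the 19 tested members, 1 passed the adjusted threshold, and it was lower in NHD13 cells. Over all 9000 genes 50 passed, or 0.556%, of which 18 were higher and 32 lower. The share of higher genes among those that passed was 36%, and it was 48.1% without background correction and 73.3% with the authors' processed values. The tested members spread from -2.48 to 0.49 in log2 difference (NHD13 minus wild type), 11 below 0 and 8 above. Their median was -0.19, against 0.03 over all tested genes. It was -0.045 without NHD13 replicate 1, -0.072 without background correction and -0.017 without a detection filter. Fzd6 could be tested only through its detection in wild type cells.

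Ryk, a Wnt-binding receptor with a catalytically inactive kinase domain, was the member that fell. Its deposited intensity, before any correction, was 190, 218 and 202 on the NHD13 arrays, against 628, 780 and 455 on the wild type arrays. The standard errors over the beads of an array lay between 7.88 and 41.4, and they do not measure the spread between pools. All 3 NHD13 values were below the lowest wild type value. After normalization Ryk measured 6.18, 6.85 and 6.04 in NHD13 cells, against 8.63, 9.39 and 8.48 in wild type cells (log2). The difference was -2.48 ± 0.32 (SE, n = 3 against 3), a 5.58-fold lower level (limma adjusted p = 0.036). In pooled cells, fewer cells that express a gene and less RNA per cell cannot be told apart.

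A second, dimmer probe of Ryk gave 5.97, 4.78 and 4.75 in NHD13 cells, against 6.86, 7.97 and 7.24 in wild type cells. It was detected on 1 of 3 NHD13 arrays and on 3 of 3 wild type arrays. It differed by -2.19 ± 0.42 (SE, n = 3 against 3), on the same side as the brighter probe, and did not pass by itself (limma adjusted p = 0.15).

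**Figure D1:**
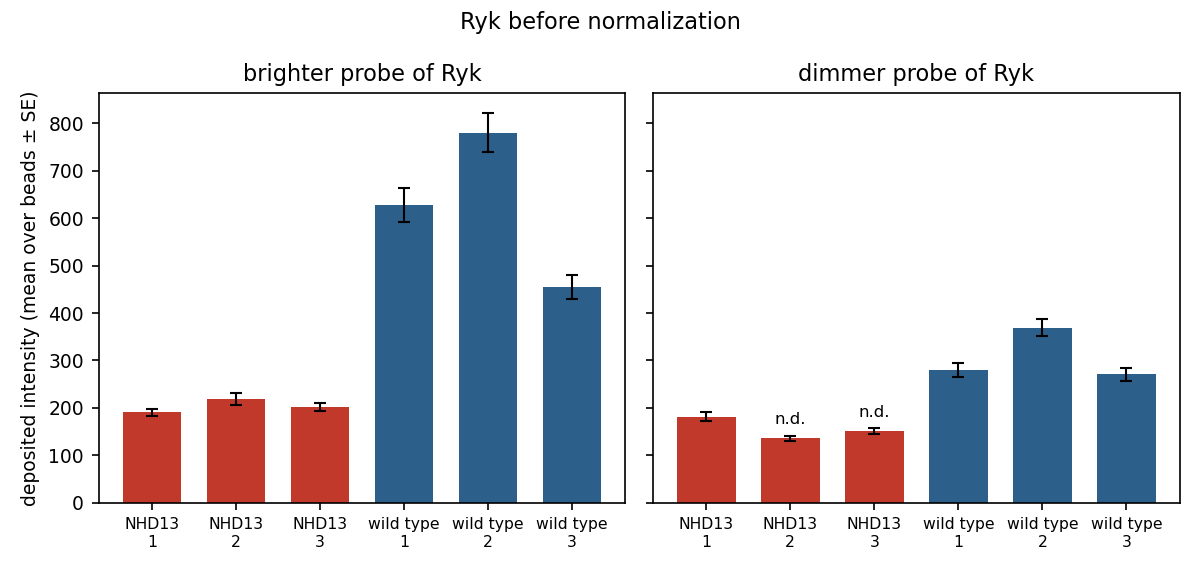
Deposited intensity (y axis, linear, from 0) of the brighter and the dimmer Ryk probe on the 3 NHD13 and 3 wild type arrays (x axis); bars are means over beads, error bars standard errors over beads, and n.d. marks arrays with a detection p-value of 0.05 or more. On both probes the highest NHD13 array lies below the lowest wild type array, for the brighter probe 218 against 455.

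The call of Ryk depended on single arrays, while its direction did not. The adjusted p was 0.19 without NHD13 replicate 1, 0.061 without NHD13 replicate 3, 0.19, 0.071 and 0.11 when wild type replicate 1, 2 or 3 was left out. It was 0.039 without NHD13 replicate 2. The difference ranged from -2.73 to -2.20 over these 6 fits, and no background correction gave -1.49 (adjusted p = 0.057).

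Markers of other cells differed between the same arrays. Among 13 genes of lymphoid priming and B progenitors 7 were tested, all 7 lay below 0, and Dntt, the terminal transferase of early lymphocytes, passed (at least 3.63-fold lower, limma adjusted p = 0.031). Dntt and Il7r were detected on 0 NHD13 and 3 wild type arrays, so they entered the test only through wild type cells. The call of Dntt and the count of 7 are therefore descriptions. The summed level of the 7 lay between 384 and 1779 in NHD13 cells and between 2296 and 3851 in wild type cells, in normalized linear intensity. Satb1 was the brightest of the 7 on every array, so it weighs most in this sum. It measured 9.21, 7.44 and 10.48 in NHD13 cells, against 11.14, 10.87 and 11.08 in wild type cells (log2). Satb1 did not pass (limma adjusted p = 0.54). Rag1, Rag2 and Pax5 were among the genes of that list that were not tested.

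Other lists had summed levels whose ranges overlapped between genotypes. The 7 tested of 10 stem and progenitor genes summed to between 10535 and 13601 in NHD13 cells and between 12875 and 17104 in wild type cells. Of the 7, 5 lay below 0 and 2 above. Meis1, a Hox cofactor, was lower and passed (limma adjusted p = 0.048). Cd34 at -1.73 and Slamf1 at 0.88 lay on opposite sides and did not pass. Flt3 and Ly6a were among those not tested. The 6 tested of 8 mast cell and basophil genes summed to between 3530 and 12606 in NHD13 cells and between 7952 and 13351 in wild type cells. All 6 lay below 0, with none called. Fcer1a among them was detected on 0 NHD13 and 3 wild type arrays, so it entered the test only through wild type cells. Cma1 and Tpsb2 were not tested. The 4 tested of 13 stromal and endothelial genes summed to between 211 and 467 in NHD13 cells and between 402 and 649 in wild type cells. All 11 tested of 14 granulocyte and monocyte genes lay below 0 and all 8 tested of 10 erythroid genes above 0, with none called. The granulocyte and monocyte genes summed to between 20175 and 201080 in NHD13 cells and between 85206 and 219360 in wild type cells, and the erythroid genes to between 46268 and 62866 in NHD13 cells and between 43538 and 51298 in wild type cells. The part of any of these lists in the difference of Ryk was not tested.

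The promoter windows of Ryk, the member called, and of Tcf7l2, the TCF factor described below, are shown. Windows were looked up only for tested members. Of the tested members with groups that did not overlap, only Ryk, Csnk1e and Tcf7l2 had windows to search. Among these, only Tcf7l2 had a window with a motif searched. No window was found for Fzd6 and Lrp5, whose groups also did not overlap. The 4 windows of Csnk1e, which was also lower on every NHD13 array, held neither motif and are not shown. The sequences are RefSeq's on GRCm38.p6, from 250 bases before to 50 bases after an annotated start, 5′ to 3′ on the gene's strand. Capitals mark the TCF/LEF motif, searched as CTTTGAA or CTTTGTT on both strands.
Ryk, chr9:102834670-102834969, plus strand: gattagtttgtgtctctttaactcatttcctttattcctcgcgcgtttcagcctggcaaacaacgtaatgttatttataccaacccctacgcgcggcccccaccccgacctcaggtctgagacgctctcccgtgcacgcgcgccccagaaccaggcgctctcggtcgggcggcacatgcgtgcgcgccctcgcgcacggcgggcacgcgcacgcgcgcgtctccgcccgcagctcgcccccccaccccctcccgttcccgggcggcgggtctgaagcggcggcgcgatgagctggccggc
Tcf7l2, first start, chr19:55741560-55741859, plus strand: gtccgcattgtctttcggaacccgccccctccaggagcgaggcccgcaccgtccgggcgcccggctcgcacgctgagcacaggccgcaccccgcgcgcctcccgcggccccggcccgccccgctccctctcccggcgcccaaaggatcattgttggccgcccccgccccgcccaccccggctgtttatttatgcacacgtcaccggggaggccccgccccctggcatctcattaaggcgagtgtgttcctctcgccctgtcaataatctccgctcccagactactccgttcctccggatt
Tcf7l2, internal start, chr19:55895071-55895370, plus strand: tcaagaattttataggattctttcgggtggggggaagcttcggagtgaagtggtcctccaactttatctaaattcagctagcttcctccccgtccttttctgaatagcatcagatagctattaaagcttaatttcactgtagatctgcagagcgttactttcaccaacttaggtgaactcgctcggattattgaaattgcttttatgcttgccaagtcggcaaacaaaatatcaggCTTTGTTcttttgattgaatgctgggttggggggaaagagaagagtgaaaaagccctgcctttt
The Ryk window held neither a TCF/LEF motif nor TGATTNAT, the motif of Pbx and Hox pairs. The internal Tcf7l2 window held CTTTGTT from -14 to -8 relative to the start. Promoter windows were found for 13 of the 19 tested members, 20 windows in all. A TCF/LEF motif stood in 3 of the 20 windows, 1 each of Fzd7, Gsk3a and Tcf7l2, and the Pbx-Hox motif in 1, of Pygo2. Among all 32851 windows 10.6% held the first motif and 3.22% the second.

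Of 9 Frizzled receptors 3 were tested and none passed. Fzd6, a receptor known for planar polarity, measured 5.21, 5.10 and 5.23 in NHD13 cells, against 5.92, 5.73 and 5.54 in wild type cells. Its NHD13 values were all under the wild type range and not above background, so it was at least 1.22-fold lower (limma adjusted p = 0.43). Fzd5 measured 7.30, 7.63 and 7.65 in NHD13 cells, against 7.07, 7.31 and 7.26 in wild type cells, and the ranges overlapped slightly (difference 0.31, adjusted p = 0.70).

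Fzd7, a receptor used by stem cells of several tissues, varied within each genotype by more than between them. Its NHD13 arrays gave 7.96, 8.36 and 7.29 and its wild type arrays 7.69, 8.54 and 7.12. The difference was 0.09, with a 95% interval from -0.90 to 1.07. Arrays of the same number had similar values, the arrays numbered 2 being highest in both genotypes.

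The co-receptors of beta-catenin signalling did not pass. Lrp5 measured 4.88, 5.32 and 5.65 in NHD13 cells, against 6.16, 5.85 and 6.26 in wild type cells, which do not overlap (-0.81 ± 0.23, SE, limma adjusted p = 0.43). It was detected on 1 of 3 NHD13 arrays and on 3 of 3 wild type arrays. Its other tested probe differed by -0.11, so the probes of this gene disagree in size. Lrp6 measured 5.12, 5.94 and 5.55 in NHD13 cells, against 5.59, 5.59 and 5.82 in wild type cells, overlapping values that differed by -0.13 (95% interval from -0.69 to 0.42). Ror1 and Ror2, receptors of non-canonical Wnt signals, were not detected on any array.

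Both genes of ligand production were tested and neither passed. Wls, which carries Wnt proteins to the cell surface, had 5 tested probes, which differed by -0.72 to -0.35. The brightest gave 7.39, 7.10 and 8.56 in NHD13 cells, against 9.02, 7.68 and 8.33 in wild type cells (-0.66 ± 0.47, SE, limma adjusted p = 0.74). NHD13 replicate 3 lay inside the wild type range and the other two NHD13 arrays under it. Porcn, the enzyme that attaches a lipid to Wnt proteins, was near background and differed by 0.13.

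**Figure D2:**
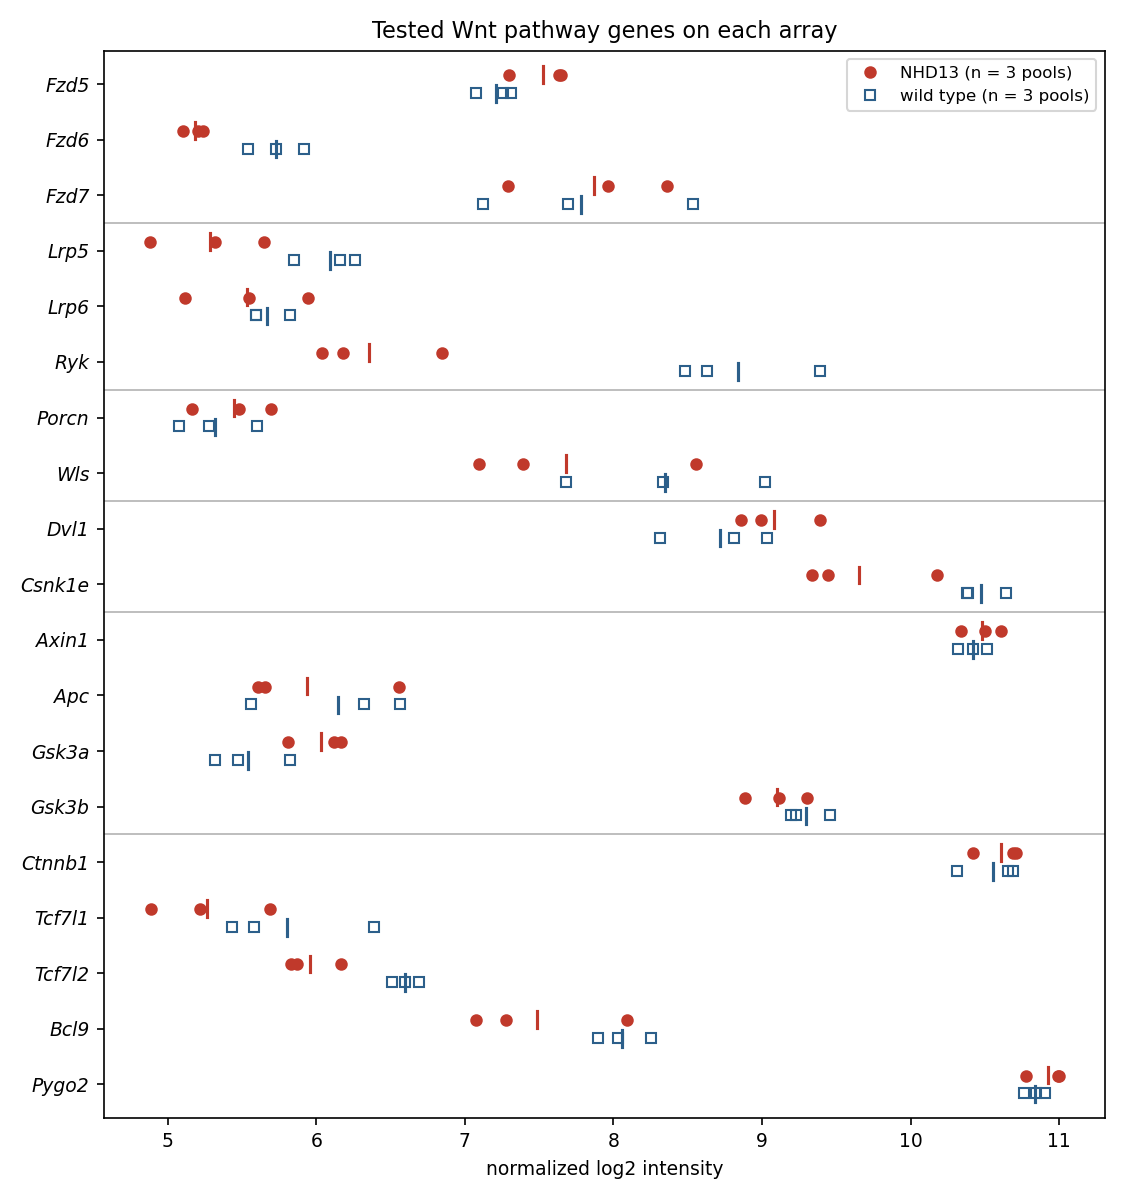
Normalized log2 intensity (x axis) of the 19 tested members (y axis, grouped by role) on each NHD13 array (filled circles, upper) and wild type array (open squares, lower); short bars are genotype means of 3 pools. Ryk shows the widest gap (means 6.35 and 8.84), and levels of different genes are not comparable because each has its own probe.

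Of 6 cytoplasmic transducers 2 were tested. Csnk1e, a casein kinase that phosphorylates Dishevelled, measured 9.44, 9.34 and 10.18 in NHD13 cells, against 10.64, 10.38 and 10.39 in wild type cells. Each NHD13 array lay under each wild type array, NHD13 replicate 3 by the least. The difference was -0.82 ± 0.25 (SE, n = 3 against 3, limma adjusted p = 0.46), and its second probe gave -0.80 (adjusted p = 0.31).

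Dvl1, a Dishevelled protein that relays the signal from Frizzled, averaged 9.08 ± 0.27 in NHD13 and 8.72 ± 0.37 in wild type cells (SD, n = 3). The groups overlapped. Its dimmer probe differed by -0.0037, whereas the brighter one differed by 0.36 (limma adjusted p = 0.73). Dvl2, Dvl3 and Csnk1a1 were not detected on any array.

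Of the 5 listed genes grouped here under the destruction complex 4 were tested, and none passed. Axin1, its scaffold, measured 10.50, 10.61 and 10.34 in NHD13 cells, against 10.42, 10.51 and 10.32 in wild type cells (difference 0.06, 95% interval from -0.29 to 0.42). A dimmer Axin1 probe measured 0.49 higher without passing (limma adjusted p = 0.55). Gsk3b, the kinase that marks beta-catenin, measured 9.12, 8.88 and 9.31 in NHD13 cells, against 9.46, 9.23 and 9.20 in wild type cells. Its brighter probe differed by -0.19 and its dimmer probe by 0.33, on opposite sides of 0.

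Gsk3a, the close relative of Gsk3b, measured 6.12, 5.81 and 6.17 in NHD13 cells, against 5.48, 5.82 and 5.32 in wild type cells. NHD13 replicate 2 was just under wild type replicate 2, so the groups touched (0.49 ± 0.19, SE, limma adjusted p = 0.62). Gsk3a was near background and detected on 3 NHD13 and 2 wild type arrays. Apc, the large scaffold of the complex, was dim and varied within both genotypes (5.94 ± 0.53 in NHD13 and 6.15 ± 0.53 in wild type cells, SD, n = 3). Its difference was -0.21.

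Axin2, a widely used readout of beta-catenin signalling, was detected on 2 of 6 arrays, too few for the main test. It measured 5.14, 4.66 and 4.67 in NHD13 cells, against 5.27, 5.96 and 5.78 in wild type cells. No NHD13 value was above background, and only 2 wild type values were, so no bound on its fold is given. When every probe detected on at least 1 array was tested, Axin2 differed by -0.85 ± 0.24 (SE) and did not pass (limma adjusted p = 0.47). It entered this wider test only through wild type cells, so its direction there is a description. Nkd1, another feedback inhibitor of the pathway, lay the other way, with 5.42, 5.84 and 5.43 in NHD13 cells, against 5.02, 4.71 and 5.35 in wild type cells. It was detected on 2 NHD13 arrays and 0 wild type arrays, and no bound on its fold is given either. In the same wider test, which it entered only through NHD13 cells, it differed by 0.54 ± 0.23 (SE) and did not pass (limma adjusted p = 0.70).

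Beta-catenin itself, encoded by Ctnnb1, did not differ beyond its spread on any of its 4 probes. The brightest gave 10.69, 10.71 and 10.42 in NHD13 cells, against 10.65, 10.69 and 10.32 in wild type cells. The difference was 0.05, with a 95% interval from -0.36 to 0.47 (limma adjusted p = 0.94). The other probes differed by between 0.0074 and 0.026.

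Tcf7l2, a TCF factor that binds DNA with beta-catenin, measured 5.87, 5.83 and 6.16 in NHD13 cells, against 6.51, 6.69 and 6.60 in wild type cells. All NHD13 values were under the wild type range and all 6 were above background. The difference was -0.64 ± 0.16 (SE, n = 3 against 3) and did not pass (limma adjusted p = 0.31). Its relative Tcf7l1, known as a repressor, differed by -0.53 with overlapping values (adjusted p = 0.71). Lef1 was detected on 1 of 6 arrays, and no probe of the annotation used here carried the symbol Tcf7.

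Bcl9 and Pygo2 encode adaptors of beta-catenin in the nucleus. Bcl9 measured 7.08, 7.28 and 8.09 in NHD13 cells, against 8.03, 7.90 and 8.25 in wild type cells, with NHD13 replicate 3 inside the wild type range (-0.58, limma adjusted p = 0.68). Pygo2 averaged 10.92 ± 0.13 in NHD13 and 10.84 ± 0.07 in wild type cells (SD, n = 3), a difference of 0.09 with a 95% interval from -0.26 to 0.43.

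**Figure D3:**
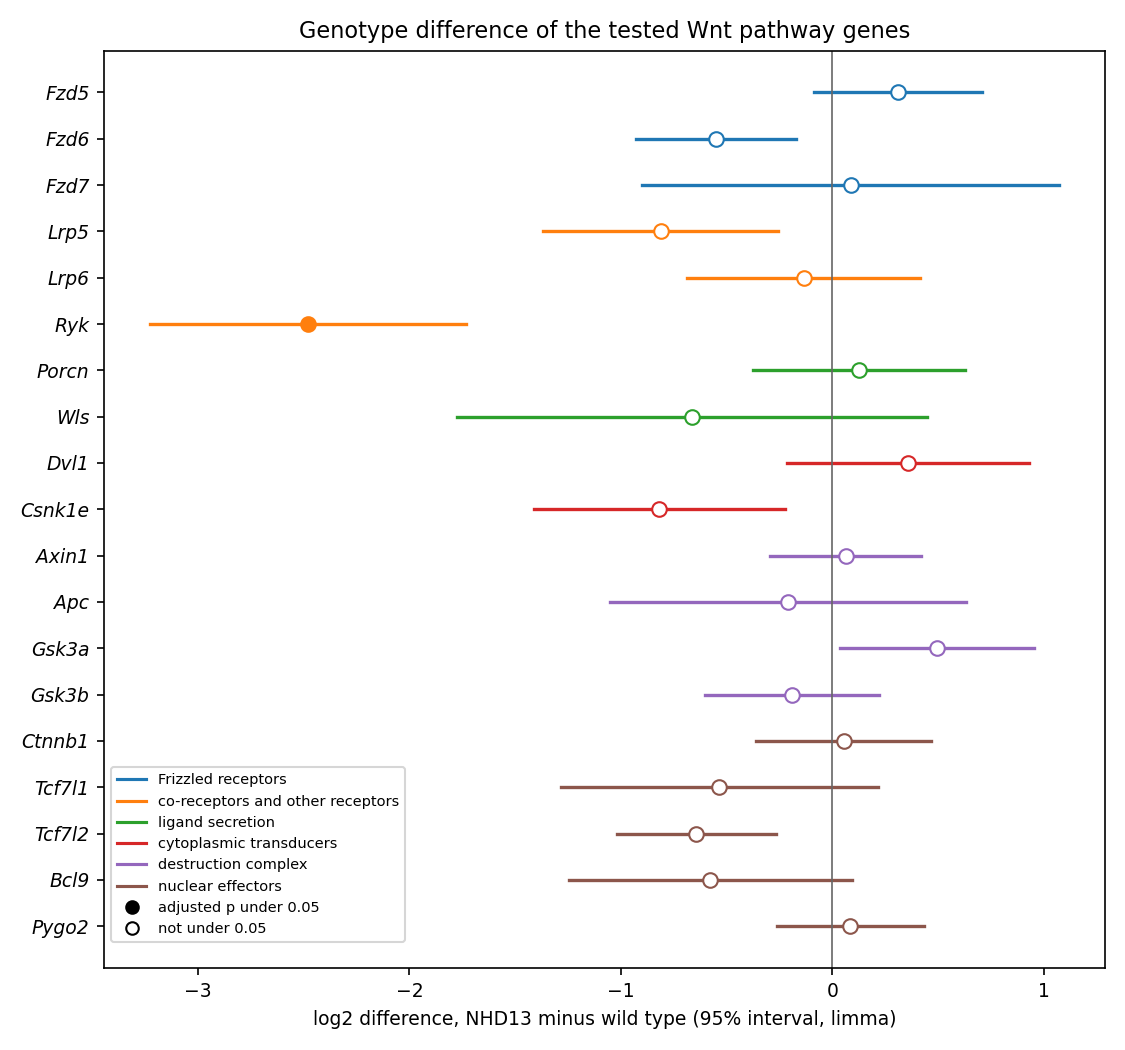
Log2 difference, NHD13 minus wild type (x axis), with its 95% interval for the 19 tested members (y axis), coloured by role; the filled circle has an adjusted p under 0.05. Ryk lies at -2.48, Lrp5 and Csnk1e at -0.81 and -0.82, and Ctnnb1, Axin1 and Pygo2 lie within 0.09 of 0.

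Counting without the adjustment, 6 of the 19 tested members had an unadjusted p under 0.05, 5 of them lower in NHD13 (Ryk, Fzd6, Lrp5, Csnk1e and Tcf7l2) and 1 higher (Gsk3a). That was 31.6% of the members. Over all tested genes the share was 7.67%, with 4.18% lower and 3.49% higher. The same 5 lower members, or 26.3%, had groups that did not overlap. Over all tested genes 12.5% did not overlap, 5.83% lower and 6.71% higher. Of the 5, only Ryk passed after adjustment, and Fzd6 was tested only through its detection in wild type cells. These counts rest on the brightest probe of each gene. Dimmer probes of Ryk and Csnk1e were also lower without overlap. Those of Axin1 and Gsk3b were higher without overlap (0.49 and 0.33), and the groups of the dimmer Lrp5 probe overlapped. Among 9 members with more than 1 tested probe, the probes of 7 lay on one side of 0, and those of Dvl1 and Gsk3b lay on both.

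The members that were not tested fell mostly among the receptors and their regulators. On none of the 6 arrays was a probe detected for 12 members. They are the Frizzled receptors Fzd1, Fzd2, Fzd8 and Fzd9, the receptors Ror1 and Ror2, and Rnf43 and Znrf3, which remove Frizzled from the surface. The others are Lgr4, the R-spondin receptor, and Dvl2, Dvl3 and Csnk1a1. Fzd3, Fzd4 and Lef1 were detected on 1 array each, and Nkd1 and Axin2 on 2. Fzd4, a receptor known for vessel development, measured 4.68, 4.66 and 4.75 in NHD13 cells, against 5.01, 5.41 and 5.50 in wild type cells, which do not overlap. In the test of probes detected on at least 1 array it differed by -0.61 ± 0.19 (SE) and did not pass (limma adjusted p = 0.53). Fzd4 was detected on 0 NHD13 arrays and 1 wild type array, so it entered that test only through wild type cells. A probe below background does not show that its gene is silent.

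Beyond the 37 members, 153 other genes of the pathway were looked up, and 76 could be tested. None passed the adjusted test in limma, and 10 had an unadjusted p under 0.05, 8 lower and 2 higher. Over all tested genes 0.556% passed the adjusted test. The share with an unadjusted p under 0.05 was 7.67%, with 4.18% lower and 3.49% higher. The median difference of the 76 was 0.00, with 38 below 0 and 38 above. All 19 Wnt ligand genes went untested for lack of detection. The secreted inhibitors were tested in 2 of 14 genes, Kremen1 at -0.32 and Wif1 at -0.31, each detected on 3 of 6 arrays.

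Among R-spondins and other receptors 1 of 11 genes was tested. It was Gpc3, a surface proteoglycan, with 5.58, 5.17 and 5.71 in NHD13 cells, against 6.94, 5.97 and 6.45 in wild type cells (-0.97 ± 0.28, SE, limma adjusted p = 0.43). Gpc3 was near background in NHD13 cells, detected on 2 of 3 NHD13 arrays and on 3 of 3 wild type arrays. Of 29 further cytoplasmic genes 20 were tested and 15 lay above 0, with a median of 0.12. Frat1, a Gsk3-binding protein, measured 8.13, 8.81 and 7.46 in NHD13 cells, against 6.78, 7.81 and 6.52 in wild type cells, with overlapping groups (1.09, adjusted p = 0.63). Csnk1d, the close relative of Csnk1e, differed by 0.34 (adjusted p = 0.65), the other way from Csnk1e, a contrast that was not tested as such.

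The remaining lists held values on both sides of 0. Of 20 other nuclear genes 15 were tested, with a median of -0.12. The corepressor Ctbp2 measured -0.81 and Bcl9l, the relative of Bcl9, -0.78. Of 36 genes of planar polarity and other non-canonical signalling 26 were tested, with a median of -0.10. Camk2a, a calcium-dependent kinase, measured 5.32, 5.40 and 5.86 in NHD13 cells, against 6.70, 6.35 and 6.39 in wild type cells (-0.96 ± 0.20, SE, limma adjusted p = 0.20). Camk2a was near background in NHD13 cells, detected on 1 of 3 NHD13 arrays and on 3 of 3 wild type arrays. Vangl2, a core polarity protein, differed by -0.52 (adjusted p = 0.48).

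Known transcriptional targets of the pathway did not move together. Of 28 such genes, 4 of which also stand in another list, 12 were tested, 7 below 0 and 5 above, with a median of -0.12. Jun, a subunit of the AP-1 factor, measured 6.41, 6.06 and 6.76 in NHD13 cells, against 7.26, 7.09 and 7.39 in wild type cells (-0.84 ± 0.21, SE, limma adjusted p = 0.33). Ccnd1, the cyclin D1 gene, lay the other way at 0.81 (adjusted p = 0.47). These genes answer to many signals besides Wnt.

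**Figure D4:**
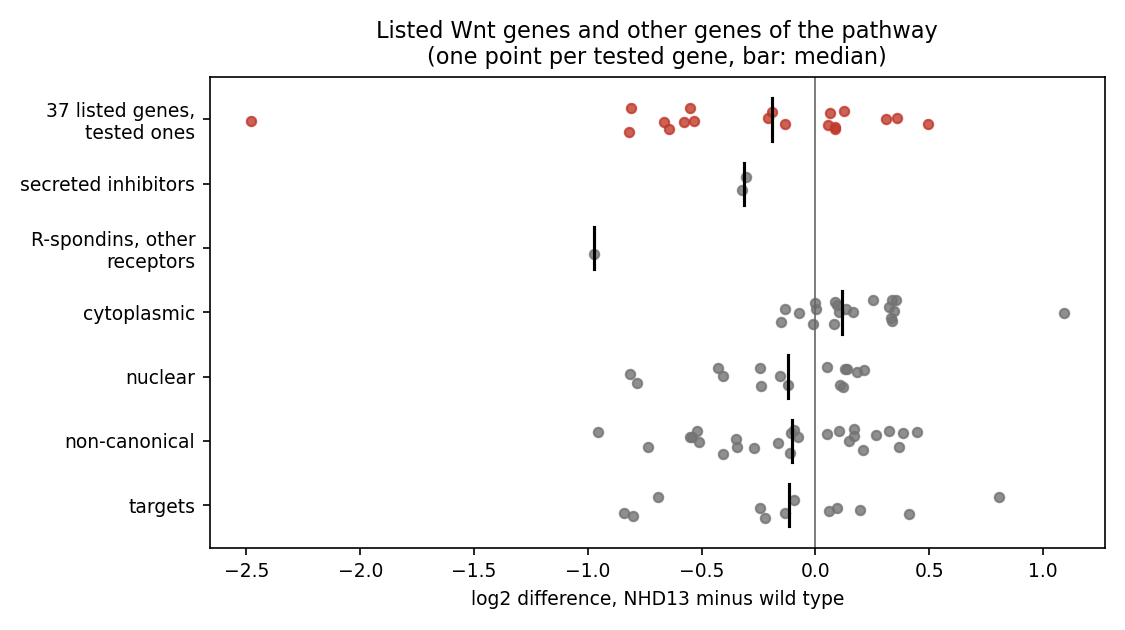
Log2 difference, NHD13 minus wild type (x axis), of the 19 tested members (top row) and of other tested pathway genes by list (rows below); each point is a gene, vertical bars are list medians, and vertical scatter within a row has no meaning. Ryk at -2.48 stands alone on the left, and the medians of the other lists with over 2 genes lie between -0.12 and 0.12.

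Processing changed the size of several differences more than their direction. Across 18 alternatives Ryk ranged from -2.73 to -1.49 and passed in 9. With array weights 4 members passed, Ryk, Csnk1e, Lrp5 and Tcf7l2, all lower in NHD13 cells. Calls also rose over all 9000 genes, to 342 with array weights, 210 of them lower, against 50 in the main analysis. In that fit NHD13 replicate 1 carried a weight of 5.02, against 0.55 for NHD13 replicate 2 and 0.35 for NHD13 replicate 3.

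**Figure D5:**
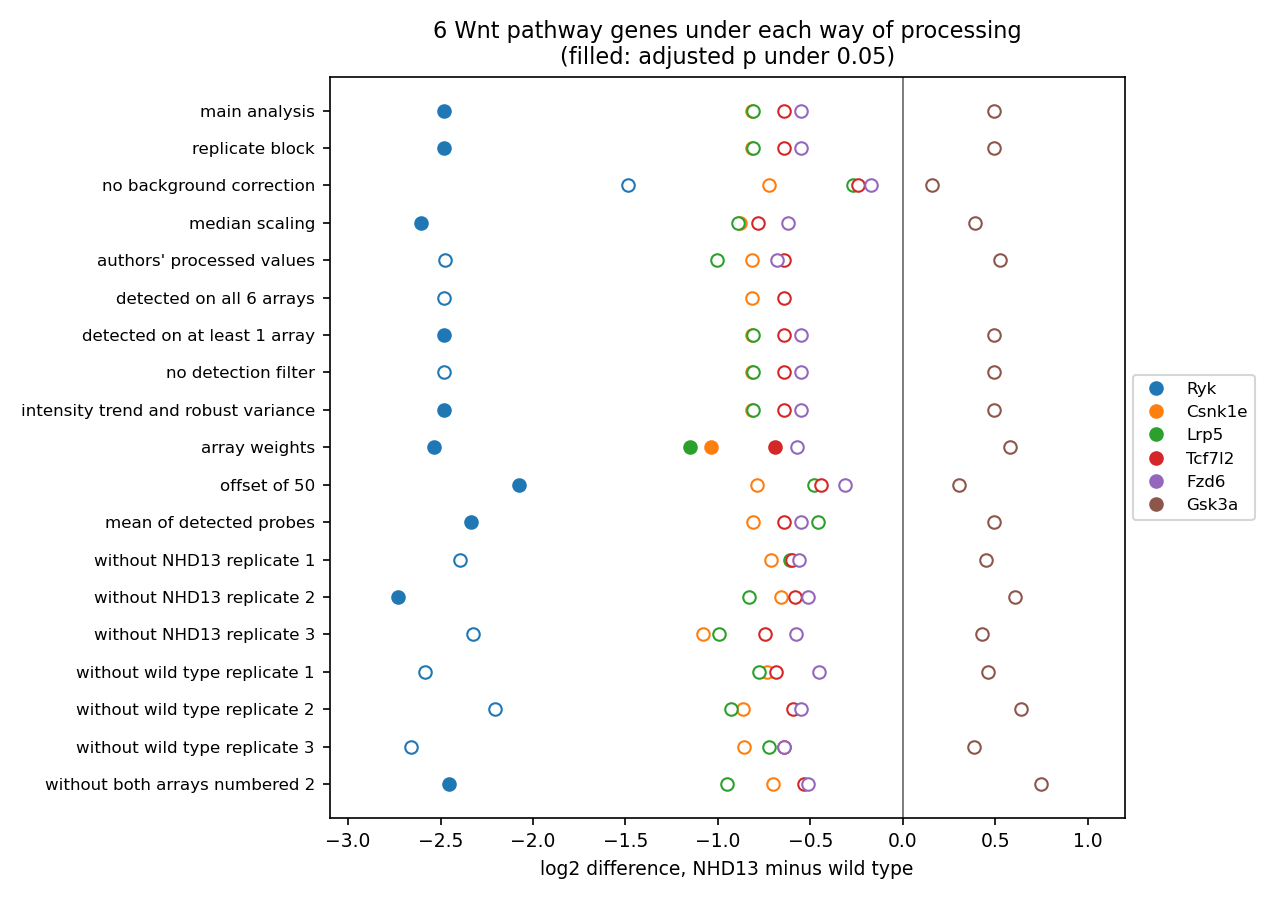
Log2 difference, NHD13 minus wild type (x axis), of the 6 members with an unadjusted p under 0.05 in the main analysis, under each alternative (y axis); filled circles have an adjusted p under 0.05. Ryk stays between -2.73 and -1.49 and Gsk3a between 0.16 and 0.75.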

How the data were processed

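Per the file headers, the authors deposited for each probe an average intensity (not background-subtracted, not normalized), a detection p-value, the number of beads and the bead-level standard error. The columns are named by genotype and number, control standing for wild type. The authors' processed intensity values, also deposited, reach down to -45.6 and rank the probes of an array as the first table does; how they were made is not stated. The first table was normalized with neqc of limma 3.58.1 in R 4.3.3 (normexp with inferred negative controls, offset 16, quantile, log2). The test took in 16518 of 45281 probes, those detected (p under 0.05) on 3 or more of the 6 arrays, with lmFit and eBayes, two-sided, with Benjamini-Hochberg adjustment over all of them at 0.05. The code was tested on simulated data. Symbols came from the platform annotation (34885 probes with 1 symbol, 18 with several, 10378 with none), of which RefSeq's table changed 0. Some genes were below background on a whole group and detected on all 3 arrays of the other. Their fold is a bound against the lowest detected value of each array, or the gene's own value if higher. Such floors lay between 5.39 and 5.49.

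Members, lists and rules were chosen with earlier results of these data known. Tested members with an adjusted or unadjusted p under 0.05, with groups that did not overlap, or of the pathway's core are given by array, and other lists by up to 2 genes of smallest p. The array values of Wls, Fzd5, Fzd7, Bcl9 and the rarely detected Axin2, Nkd1 and Fzd4 and the gene-by-array values of Gpc3, Frat1, Camk2a and Jun go beyond that. Deviations from the group means correlated at 0.19, 0.67 and 0.54 between arrays numbered 1, 2 and 3, and at -0.61 to 0.24 between arrays of other numbers. The first values were each over 0.1, so the numbers were read as pairs, although 0.19 lies within the range of other numbers. The main test did not use the pairing, which entered only as an alternative. Alternatives were the pairing, no background correction, an offset of 50, median scaling, the authors' values, 3 other detection filters, another variance model, array weights, the mean of a gene's probes, and arrays left out. No 2 arrays were copies: 22.5% to 47.6% of probes differed by over 2 bead standard errors within a genotype. Samples are separate pools of mice, and their number limits the precision.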

Additional observations from a re-analysis of the deposited data

How the results depend on the processing

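All 6 arrays were left out in turn and 12 other alternatives were run. With the replicate block (arrays of one number taken as a pair) 56 genes and 1 member passed, Ryk with an adjusted p of 0.016, and the block changed no call among the members. The 50 genes called became 27 without background correction, 15 with the authors' processed values, 6 with detection on all 6 arrays, 342 with array weights, 16 without both arrays numbered 2, and 1 to 60 without 1 array (1, 24 and 4 without wild type replicate 1, 2 or 3, and 16 without NHD13 replicate 1). The 1 member called became 0 without background correction, with the authors' processed values, with detection on all 6 arrays and without a detection filter, 4 with array weights, and 0 to 1 without 1 array. Other Wnt genes called were 0, and 6 with array weights (Bcl9l, Camk2a, Camk2d, Jun, Sox4 and Vegfa). The members' median of -0.19 was -0.072 without background correction, -0.26 with median scaling, -0.017 without a detection filter, -0.13 with the mean of detected probes, -0.31 without both arrays numbered 2 and -0.24 to -0.045 without 1 array. Of the single members, 4 crossed 0, none of them called: Fzd7 (-0.042 with median scaling, -0.24 to 0.47 without 1 array), Gsk3b (0.068 with the mean of detected probes), Ctnnb1 (-0.064 to 0.15 without 1 array) and Lrp6 (-0.34 to 0.075 without 1 array). The causes were not tested. Signal near background limits Fzd6, Gsk3a, Lrp5, Lrp6, Porcn and Tcf7l1.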
